A study of Mus musculus with 9 samples.

Results

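The Nrf2 antioxidant and metallothionein genes examined here were Nfe2l2, which encodes the transcription factor Nrf2, its target genes Hmox1, Nqo1, Gclc, Gclm, Txnrd1, Slc7a11 and Srxn1, and the metallothionein genes Mt1 and Mt2. They were chosen by gene name, and all 10 were found among the 54532 genes of the count table and had enough reads to be tested. Adipose-derived stem cells (ASCs) of C57BL/6 mice were compared by bulk mRNA sequencing between fat from under the skin (subcutaneous, Sub-ASC), from the abdomen (Ab-ASC) and from around blood vessels (perivascular, PVASC), with 3 libraries per group and 9 in all. The cells of every group were digested from tissue with collagenase and Dispase and harvested at passages 3 to 6. All were grown in a stem cell medium with serum, leukemia inhibitory factor and FGF. No treatment or genetic change set the groups apart, and the age and sex of the mice and the number of mice behind each culture were not given in the sources used here. The p-values therefore measure the spread between these libraries, which may be technical. No sorting step is given for the sequenced cultures, and in bulk RNA fewer cells of a type and less RNA per cell cannot be told apart. By flow cytometry, the paper describes PVASCs of these passages as carrying surface markers such as Sca1 and lacking CD45 and CD31.

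Nrf2 is held at a low level by Keap1, an adaptor that brings it to a ubiquitin ligase. Oxidants and electrophiles modify Keap1, and Nrf2 then accumulates, pairs with a small Maf protein and binds antioxidant response elements (AREs) near its target genes, at which Bach1 competes as a repressor. Much of this control acts on the Nrf2 protein, which an RNA library does not measure. Metallothioneins are small cysteine-rich proteins that bind zinc and copper. Their genes are switched on by the zinc sensor Mtf1 through metal response elements (MREs) and also respond to glucocorticoids and inflammatory cytokines.

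The upstream sequences of both metallothionein genes and of Srxn1 are shown because the metallothionein genes are neighbours that differed strongly between the groups, and because Srxn1 had the most ARE matches among the genes for which such a sequence was found. Each is the 250 bases before the RefSeq transcript start on GRCm38.p6, on the plus strand. In Mt1 and Mt2 the capitals mark MRE letters, TGCACNC or TGCGCNC on either strand. In Srxn1 they mark ARE letters, TGACNNNGC or TGAGNNNGC on either strand.
Mt1 (chr8:94178839-94179088): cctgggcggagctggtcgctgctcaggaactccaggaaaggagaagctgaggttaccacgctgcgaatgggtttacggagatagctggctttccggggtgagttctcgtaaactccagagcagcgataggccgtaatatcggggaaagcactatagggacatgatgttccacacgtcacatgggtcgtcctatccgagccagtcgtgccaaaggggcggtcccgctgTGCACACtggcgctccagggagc
Mt2 (chr8:94172368-94172617): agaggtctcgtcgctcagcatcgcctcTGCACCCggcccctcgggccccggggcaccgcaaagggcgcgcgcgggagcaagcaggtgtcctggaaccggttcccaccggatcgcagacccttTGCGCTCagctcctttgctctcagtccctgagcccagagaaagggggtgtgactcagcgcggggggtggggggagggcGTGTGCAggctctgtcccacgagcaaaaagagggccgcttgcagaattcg
Srxn1 (chr2:152105274-152105523): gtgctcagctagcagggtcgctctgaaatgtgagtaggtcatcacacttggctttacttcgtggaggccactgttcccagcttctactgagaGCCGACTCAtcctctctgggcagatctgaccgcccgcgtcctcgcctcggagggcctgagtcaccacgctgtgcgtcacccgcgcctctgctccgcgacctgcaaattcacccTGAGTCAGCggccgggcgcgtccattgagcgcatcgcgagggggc
Counted over the whole 300-base window, which also takes in 50 bases after the start, MRE letters were found 4 times at Mt2 and 3 times at Mt1. Of the 3 matches at Mt1, 1 lies in the bases shown and the others follow the start at positions 3 and 21. Srxn1 had 3 ARE matches, at positions -158, -45 and 29, and Mt2 had 1 ARE match, TGACTCAGC, at position -79. RefSeq windows were found for 8 of the genes, and the source used held none for Hmox1 or Gclc. ARE letters were present for 6 of the 8, namely Nfe2l2, Gclm, Txnrd1 (in 1 of its 3 windows), Slc7a11, Srxn1 and Mt2, and were not found in these windows of Nqo1 and Mt1. They were present in 27.8% of 32851 windows of all genes, and 3 or more matches in 0.63%. MRE letters were present for 4 of the 8, namely Gclm, Srxn1, Mt1 and Mt2, against 25.7% of all windows, and 3 or more matches, as at Gclm, Mt1 and Mt2, in 1.97%. The ARE match of Gclm at position -134 overlaps its MRE match at position -138, and the other matches do not overlap. Such matches describe letters and do not show binding.

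Between 20524173 and 29881036 reads were counted per library. Levels are given as CPM, the counts scaled to a library of fixed size, after normalization by edgeR's TMM method, and 3 reads correspond to 0.1004 to 0.146 CPM before that scaling. Differences are log2 fold changes with their standard errors (SE), and a gene was called when its p from edgeR's quasi-likelihood test, adjusted by Benjamini-Hochberg over 16526 genes, was below 0.05. Between PVASCs and Sub-ASCs, 70.4% of these genes were called, against 75.3% between Ab-ASCs and Sub-ASCs and 56.9% between PVASCs and Ab-ASCs, so a call is the usual outcome here. Ab-ASC replicate 1 stood furthest apart. It differed from the other Ab-ASC libraries with a chi-square per degree of freedom of 29.3 and 18.5, against 4.26 between those libraries, and its genes of 1000 to 2000 bases, such as Hmox1, Nqo1 and Mt1, differed from them by a median of 0.18 on the log2 scale and those over 8000 bases, such as Slc7a11, by -0.13. Sub-ASC replicate 2 differed less from its group, with 6.23 and 8.09 against 2.92 between the others. Leaving out Ab-ASC replicate 1 changed no call on the 10 genes in any of the 3 comparisons, and values without that library are given below for Hmox1, Nqo1, Slc7a11, Mt1 and Mt2.

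Of the 10 genes, 6 were higher and 2 lower in Ab-ASCs than in Sub-ASCs, beside 37.0% and 38.3% of all genes. Between PVASCs and Sub-ASCs, 3 were higher and 5 lower, beside 34.7% and 35.7%. Scaling by library totals alone raised the all-gene median to 0.15 (log2) in this comparison and to 0.17 in PVASCs against Ab-ASCs, and under it only Mt1 and Mt2 were called lower in PVASCs than in Sub-ASCs, 2 in place of 5. In PVASCs against Ab-ASCs, 9 were lower and 0 were higher, beside 32.1% and 24.7% of all genes, and the gene not called was Nqo1. All 10 fold changes of that comparison were below 0, so 0 genes were higher at an unadjusted p below 0.05, and DESeq2 called 8 lower and 0 higher. Among the called genes, 4 differed by at least 1 on the log2 scale between PVASCs and Sub-ASCs, 7 between Ab-ASCs and Sub-ASCs and 5 between PVASCs and Ab-ASCs, beside 32.2%, 37.8% and 15.4% of all genes. The median log2 fold change over the 10 genes was -0.09 for PVASCs against Sub-ASCs, 0.92 for Ab-ASCs against Sub-ASCs and -1.0 for PVASCs against Ab-ASCs, and over all genes it was -0.01, -0.03 and -0.06. These comparisons share their groups and are not independent of each other. The libraries of the groups did not overlap for 9, 8 and 9 of the 10 genes in the same order, beside 77.3%, 76.5% and 63.9% of all genes.

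**Figure D1:**
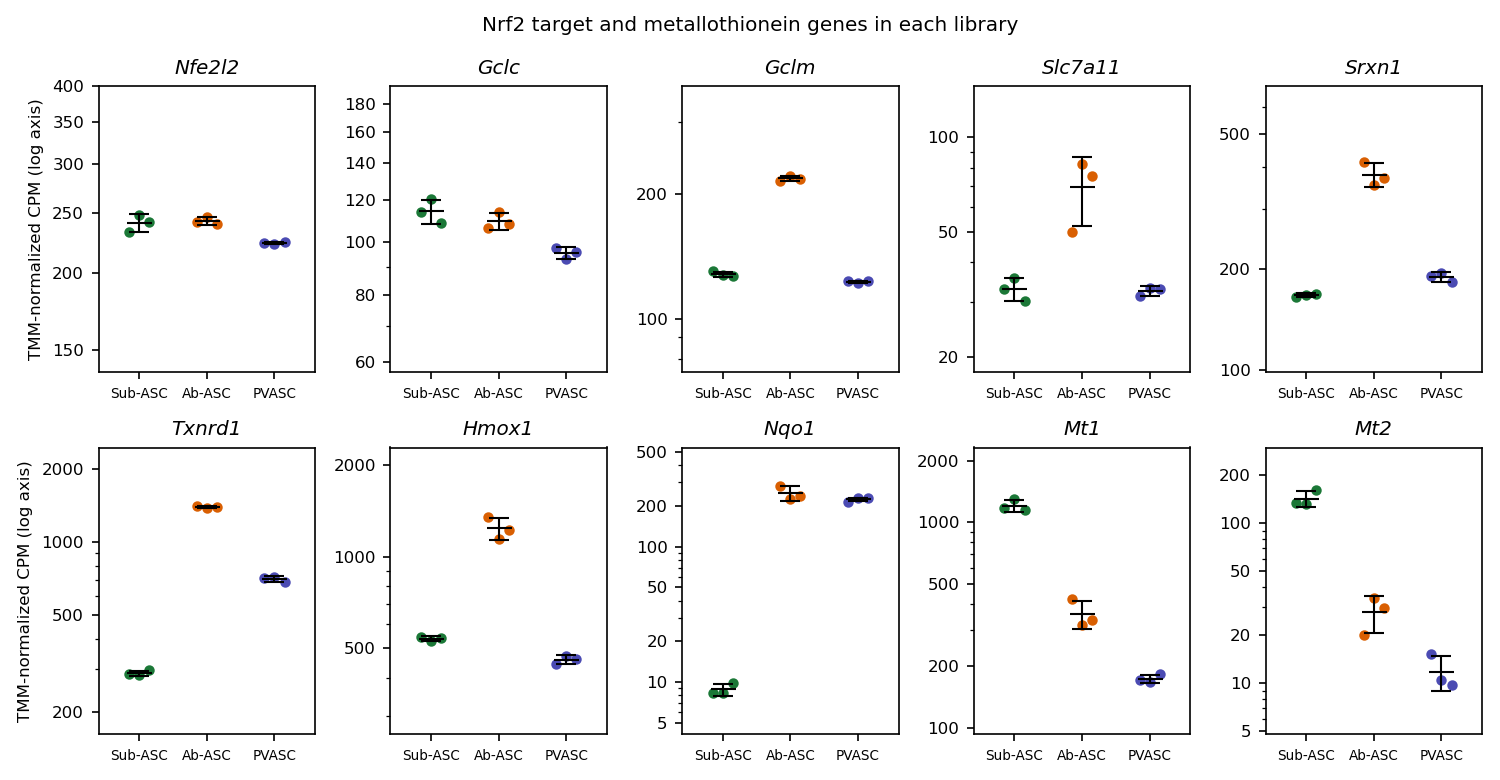
Level of each of the 10 genes (y axis, TMM-scaled CPM, log scale) in the libraries of Sub-ASCs, Ab-ASCs and PVASCs (x axis), with points for libraries and the mean and SD drawn over 3 libraries. Hmox1, Gclm, Txnrd1, Slc7a11 and Srxn1 are highest in all Ab-ASC libraries, Nqo1 is below 10 CPM only in Sub-ASCs, and Mt1 and Mt2 are highest in Sub-ASCs.

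Nfe2l2 (ENSMUSG00000015839) was listed at 75675513 to 75704641 of chromosome 2 (GRCm38, minus strand). Its level was 233, 248 and 242 CPM in the Sub-ASC libraries, 242, 246 and 240 CPM in the Ab-ASC libraries and 223, 222 and 224 CPM in the PVASC libraries. The PVASC libraries were the lowest, below every other library, while Sub-ASC and Ab-ASC libraries overlapped. The gene for the regulator thus spanned a narrow range. Its log2 fold change was -0.11 (SE 0.05, adjusted p = 0.0499 by edgeR's quasi-likelihood test) in PVASCs against Sub-ASCs and -0.12 (SE 0.05, adjusted p = 0.0413) against Ab-ASCs. Both calls were fragile, being lost in 14 and 15 of 19 other fits. Scaling by library totals alone gave 0.049 and 0.11, which are below the medians of all genes under that scaling (0.15 and 0.17). Leaving out 1 library lost the first call for every library except Sub-ASC replicate 1 and Ab-ASC replicate 1, with values from -0.14 to -0.084, and the second for every library except Sub-ASC replicate 2 and Ab-ASC replicate 1, with values from -0.13 to -0.11. In Ab-ASCs against Sub-ASCs the log2 fold change was 0.01 (SE 0.05, adjusted p = 0.837), and in 1 of 19 other fits, the gene length correction, it was 0.18 and called.

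Hmox1 (ENSMUSG00000005413, chromosome 8, plus strand, 75093621 to 75100589) encodes haem oxygenase 1, which breaks down haem to biliverdin, carbon monoxide and iron. It was measured at 544, 527 and 541 CPM in Sub-ASCs, 1351, 1140 and 1225 CPM in Ab-ASCs and 442, 473 and 462 CPM in PVASCs. Every Ab-ASC library was above every other library, and the PVASC libraries were the lowest, with no overlap between groups. It was 2.30-fold higher in Ab-ASCs than in Sub-ASCs (log2 1.20, SE 0.06, adjusted p = 2.09e-09 by edgeR's quasi-likelihood test) and 2.70-fold lower in PVASCs than in Ab-ASCs (log2 -1.43, SE 0.06, adjusted p = 2.25e-09). Without Ab-ASC replicate 1 these log2 values were 1.14 and -1.37. The difference between PVASCs and Sub-ASCs was smaller, at a log2 fold change of -0.23 (SE 0.06, adjusted p = 0.00477), and was not called under library totals alone, which shifted the median of all genes to 0.15.

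Nqo1 (ENSMUSG00000003849, chromosome 8, minus strand, 107388225 to 107403206) encodes a quinone reductase that uses NAD(P)H and is often taken as a readout of Nrf2 activity. It was at 8.33, 8.29 and 9.88 CPM in Sub-ASCs, 282, 224 and 238 CPM in Ab-ASCs and 215, 228 and 227 CPM in PVASCs. The Sub-ASC libraries were far below all others, whereas Ab-ASC and PVASC libraries overlapped. It was 28.0-fold higher in Ab-ASCs (log2 4.81, SE 0.10, adjusted p = 7.46e-13 by edgeR's quasi-likelihood test) and 25.2-fold higher in PVASCs (log2 4.66, SE 0.10, adjusted p = 9.69e-13) than in Sub-ASCs. Only 3.79% and 4.07% of all genes differed by as much in these comparisons. Between PVASCs and Ab-ASCs the log2 fold change was -0.15 (SE 0.08, adjusted p = 0.136). It was -0.053 (SE 0.053) and not called without Ab-ASC replicate 1, which had the highest level of its group, and -0.23 and called without Ab-ASC replicate 2. 

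Slc7a11, Gclc and Gclm act in glutathione synthesis. Slc7a11 (ENSMUSG00000027737, chromosome 3, minus strand, 49892526 to 50443614) encodes the light chain of the transporter that imports cystine in exchange for glutamate. Its level was 33.0, 35.6 and 30.1 CPM in Sub-ASCs, 50.1, 82.5 and 75.4 CPM in Ab-ASCs and 31.2, 33.2 and 33.0 CPM in PVASCs. The Ab-ASC libraries were above all others, with replicate 1 the lowest of them, and Sub-ASC and PVASC libraries overlapped. It was 2.11-fold higher in Ab-ASCs than in Sub-ASCs (log2 1.08, SE 0.14, adjusted p = 2.29e-05 by edgeR's quasi-likelihood test) and 2.14-fold lower in PVASCs than in Ab-ASCs (log2 -1.10, SE 0.14, adjusted p = 4.82e-05). Without Ab-ASC replicate 1 these log2 values were 1.27 and -1.28. PVASCs and Sub-ASCs differed by -0.02 (SE 0.15, adjusted p = 0.916).

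Gclc and Gclm encode the catalytic and modifier subunits of glutamate-cysteine ligase, the rate-limiting enzyme of glutathione synthesis. Gclc (ENSMUSG00000032350, chromosome 9, plus strand, 77754535 to 77794485) was at 114, 120 and 108 CPM in Sub-ASCs, 106, 114 and 108 CPM in Ab-ASCs and 97.8, 93.1 and 96.0 CPM in PVASCs. Gclm (ENSMUSG00000028124, chromosome 3, plus strand, 122245557 to 122270732) was at 130, 128 and 127 CPM in Sub-ASCs, 216, 222 and 218 CPM in Ab-ASCs and 123, 122 and 123 CPM in PVASCs. The catalytic subunit was lowest in the PVASC libraries, and the modifier subunit was highest in the Ab-ASC libraries. Gclm was 1.71-fold higher in Ab-ASCs than in Sub-ASCs (log2 0.77, SE 0.05, adjusted p = 9.32e-09 by edgeR's quasi-likelihood test) and 1.78-fold lower in PVASCs than in Ab-ASCs (log2 -0.83, SE 0.05, adjusted p = 1.98e-08). In PVASCs against Sub-ASCs its log2 fold change was -0.06 (SE 0.05, adjusted p = 0.240). For Gclc the log2 fold change of Ab-ASCs against Sub-ASCs was -0.06 (SE 0.06, adjusted p = 0.338). Gclc was lower in PVASCs than in Sub-ASCs (log2 -0.25, SE 0.06, adjusted p = 0.00135) and than in Ab-ASCs (log2 -0.19, SE 0.06, adjusted p = 0.0110). The first of these values was -0.096 and not called under library totals alone, where the median of all genes was 0.15. The latter call was lost in 4 of 19 other fits, among them the fit without PVASC replicate 2 (-0.17), and under library totals alone it was 0.032, where the median of all genes was 0.17. The number of Gclc reads per Gclm read was 0.890 ± 0.045 in Sub-ASCs, 0.779 ± 0.016 in PVASCs and 0.5001 ± 0.0098 in Ab-ASCs (SD, n = 3), with no overlap between groups.

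Txnrd1 and Srxn1 restore oxidized thiols. Txnrd1 (ENSMUSG00000020250, chromosome 10, plus strand, 82833951 to 82897712) encodes cytosolic thioredoxin reductase, a selenoprotein that reduces thioredoxin with NADPH. Its level was 286, 282 and 296 CPM in Sub-ASCs, 1416, 1388 and 1390 CPM in Ab-ASCs and 709, 720 and 682 CPM in PVASCs. The 3 groups did not overlap, and PVASCs lay between the others. Txnrd1 was 4.86-fold higher in Ab-ASCs (log2 2.28, SE 0.05, adjusted p = 3.71e-13 by edgeR's quasi-likelihood test) and 2.44-fold higher in PVASCs (log2 1.29, SE 0.04, adjusted p = 5.21e-11) than in Sub-ASCs, and 1.99-fold lower in PVASCs than in Ab-ASCs (log2 -0.99, SE 0.04, adjusted p = 3.07e-09). The gene Eid3, which overlaps Txnrd1 on the same strand, had at most 108 reads in any library.

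Srxn1 (ENSMUSG00000032802, chromosome 2, plus strand, 152105516 to 152111376) encodes sulfiredoxin, which repairs peroxiredoxins that peroxide has over-oxidized, and its upstream bases hold ARE matches shown above. It was at 165, 167 and 169 CPM in Sub-ASCs, 414, 354 and 371 CPM in Ab-ASCs and 190, 194 and 182 CPM in PVASCs. The order of the groups was that of Txnrd1, without overlap. Srxn1 was 2.27-fold higher in Ab-ASCs than in Sub-ASCs (log2 1.19, SE 0.06, adjusted p = 2.59e-09 by edgeR's quasi-likelihood test) and 2.01-fold lower in PVASCs than in Ab-ASCs (log2 -1.01, SE 0.06, adjusted p = 5.08e-08). The difference between PVASCs and Sub-ASCs was 0.18 (SE 0.06, adjusted p = 0.0207). This call was lost when Sub-ASC replicate 1 (0.17), PVASC replicate 1 (0.18) or PVASC replicate 2 (0.17) was left out.

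**Figure D2:**
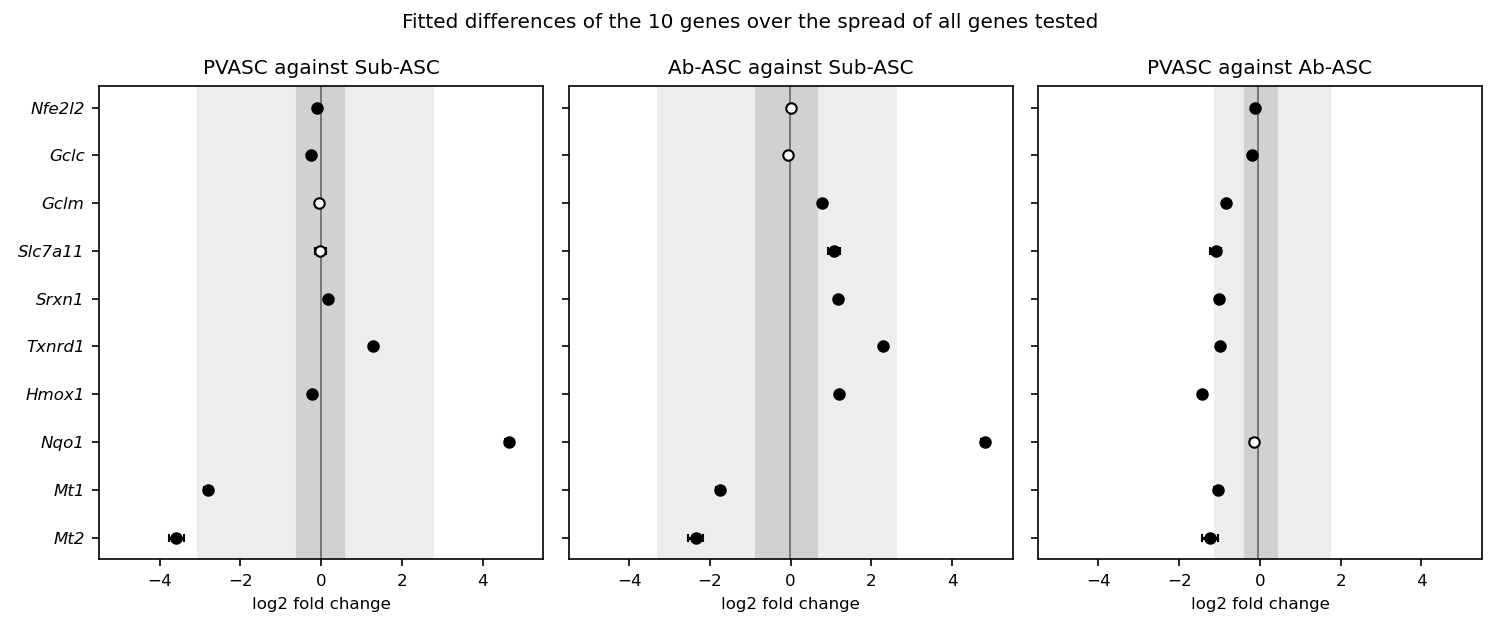
Log2 fold change of each gene (x axis) in the 3 comparisons of groups, with bars for the SE, filled points for genes called at an adjusted p below 0.05, and grey bands for the central 50% and 90% of all 16526 genes around their median. Nqo1 lies at 4.66 and 4.81 in the comparisons with Sub-ASCs, Mt2 at -3.59 and -2.35, and all points of PVASCs against Ab-ASCs lie below 0.

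Mt1 and Mt2 lie next to each other on the plus strand of chromosome 8, Mt2 (ENSMUSG00000031762) from 94172664 to 94173568 and Mt1 (ENSMUSG00000031765) from 94179082 to 94180327, with 5513 bases between them. Mt1 was at 1173, 1305 and 1150 CPM in Sub-ASCs, 424, 318 and 337 CPM in Ab-ASCs and 172, 168 and 183 CPM in PVASCs. Mt2 was at 134, 132 and 161 CPM in Sub-ASCs, 19.9, 33.9 and 29.4 CPM in Ab-ASCs and 15.1, 10.5 and 9.80 CPM in PVASCs. Both were highest in Sub-ASCs and lowest in PVASCs, with no overlap between the groups. In PVASCs against Sub-ASCs, Mt1 was 6.94-fold lower (log2 -2.80, SE 0.10, adjusted p = 7.27e-11 by edgeR's quasi-likelihood test) and Mt2 was 12-fold lower (log2 -3.59, SE 0.19, adjusted p = 4.18e-09). In Ab-ASCs against Sub-ASCs, Mt1 was 3.36-fold lower (log2 -1.75, SE 0.10, adjusted p = 4.49e-09) and Mt2 was 5.10-fold lower (log2 -2.35, SE 0.18, adjusted p = 1.39e-07). In PVASCs against Ab-ASCs the log2 fold changes were -1.05 (SE 0.09, adjusted p = 1.98e-06) for Mt1 and -1.23 (SE 0.19, adjusted p = 0.000195) for Mt2.

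All calls on Mt1 and Mt2 were kept in each of the 19 other fits. Ab-ASC replicate 1 had the highest Mt1 level and the lowest Mt2 level of its group, and without it the log2 fold change of Mt2 was -2.16 in Ab-ASCs against Sub-ASCs and -1.42 in PVASCs against Ab-ASCs. For Mt1 the same values moved the other way, to -1.88 and -0.91. Mt1 reads per Mt2 read were 8.61 ± 1.38 in Sub-ASCs, 14.0 ± 6.36 in Ab-ASCs and 15.3 ± 3.69 in PVASCs (SD, n = 3), and the spread in Ab-ASCs, from 9.38 to 21.3, covered much of the difference. Gm45774, which overlaps Mt2 on the opposite strand, had at most 31 reads in any library. Over the 9 libraries, log2 CPM of Mt1 and Mt2 had a Pearson r of 0.97, a description that rests on 3 groups.

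**Figure D3:**
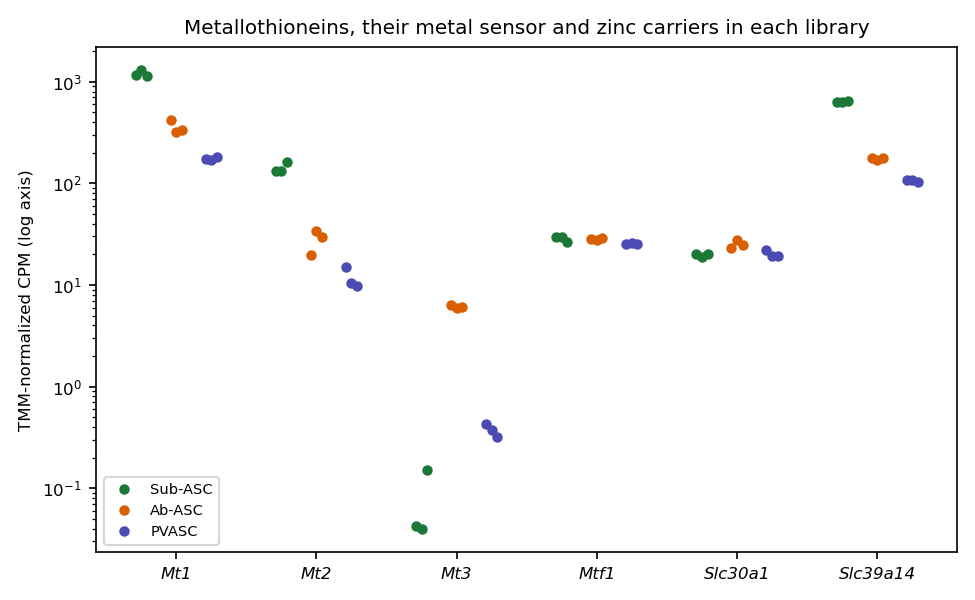
Levels (y axis, TMM-scaled CPM, log scale) of Mt1, Mt2, Mt3, the metal sensor gene Mtf1 and the zinc transporter genes Slc30a1 and Slc39a14 (x axis), with a point for each library of Sub-ASCs, Ab-ASCs and PVASCs. Mt1 and Mt2 fall from Sub-ASCs through Ab-ASCs to PVASCs, from 1305 to 168 CPM and from 161 to 9.80 CPM between the highest and lowest libraries, while Mtf1 stays near 28.5, 28.3 and 25.4 CPM on average.

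Levels of different genes were compared as FPKM, that is reads scaled for the library total and for the listed gene length in kilobases. In Sub-ASCs the order was Mt1 (950 ± 67.5 FPKM), Hmox1 (300.3 ± 4.84), Mt2 (236 ± 26.5), Nfe2l2 (62.1 ± 2.05), Srxn1 (57.9 ± 0.54), Txnrd1 (39.8 ± 0.91), Gclc (29.7 ± 1.59), Gclm (19.9 ± 0.30), Nqo1 (5.56 ± 0.55) and Slc7a11 (2.31 ± 0.20), each as mean ± SD of 3 libraries, and no neighbours in that order overlapped. In Ab-ASCs Hmox1 led at 660 ± 40.0 FPKM, followed by Mt1 (269 ± 35.1), Txnrd1 (184 ± 2.67), Nqo1 (149 ± 14.3), Srxn1 (126 ± 7.08) and Nfe2l2 (59.7 ± 2.03). Mt2 (44.2 ± 12.3) and Gclm (32.5 ± 1.26) overlapped, and Gclc (27.1 ± 1.56) and Slc7a11 (4.67 ± 1.24) came last. In PVASCs Hmox1 (286 ± 8.80 FPKM) was followed by Nqo1 (157 ± 4.80) and Mt1 (153 ± 7.0), which overlapped, then by Txnrd1 (108 ± 2.81), Srxn1 (73.0 ± 2.17) and Nfe2l2 (64.2 ± 0.46). Gclc (27.7 ± 0.79), Mt2 (21.9 ± 5.43) and Gclm (21.3 ± 0.19) were close, with Mt2 overlapping both, and Slc7a11 (2.55 ± 0.083) was the lowest. The listed length of Txnrd1 is 7086 bases against 3622 for its longest coding transcript in GENCODE, and with such lengths it ranked above Srxn1 in Sub-ASCs, above Mt1 in Ab-ASCs and above Mt1 and Nqo1 in PVASCs. In PVASCs Mt1 then also passed Nqo1, and Nfe2l2 passed Srxn1. For Mt1, listed at 1246 bases, coding transcripts run from 549 to 1085 bases. Its levels by the shorter transcripts, which would be higher, were not computed.

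**Figure D4:**
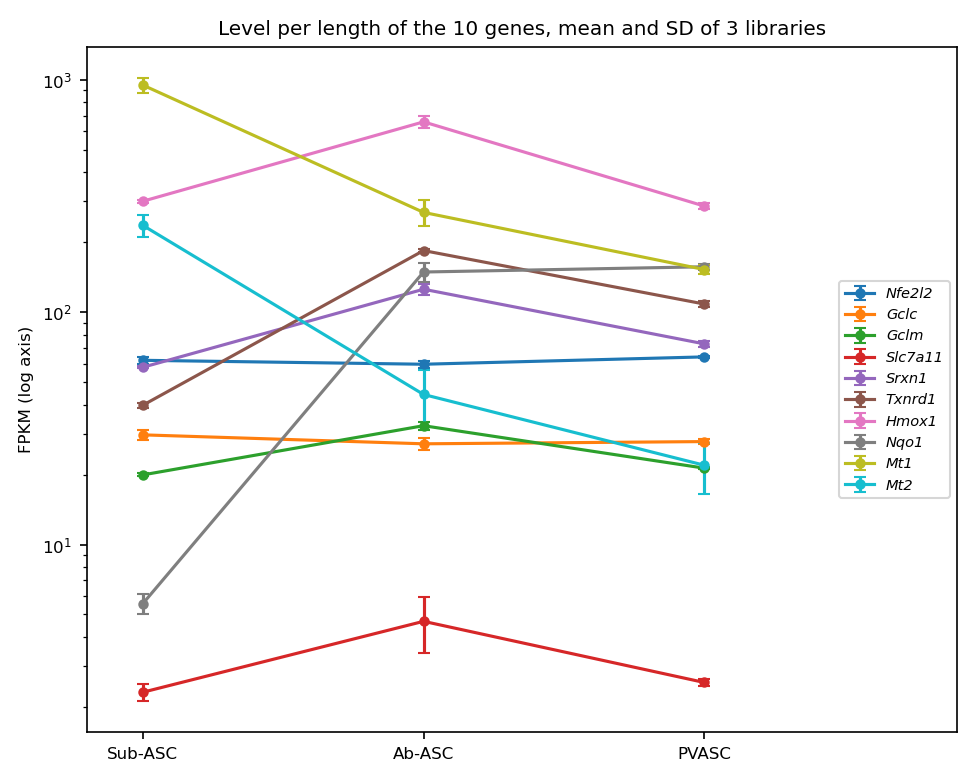
Mean level of each gene per length (y axis, FPKM, log scale) in Sub-ASCs, Ab-ASCs and PVASCs (x axis), with bars for the SD over 3 libraries and lines joining the same gene. By listed gene length, Mt1 leads in Sub-ASCs at 950 FPKM, and Hmox1 leads in Ab-ASCs and PVASCs at 660 and 286 FPKM.

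The wider pathways were described with 10 lists of 84 different genes, of which 81 were tested. Over all lists, 34 genes were higher and 36 lower in PVASCs than in Sub-ASCs, 45 higher and 25 lower in Ab-ASCs than in Sub-ASCs, and 8 higher and 53 lower in PVASCs than in Ab-ASCs. The shares of all genes called higher and lower were 34.7% and 35.7%, 37.0% and 38.3%, and 24.7% and 32.1% in the same comparisons, and each list below is to be read against them. The median log2 fold changes of the listed genes were -0.02, 0.28 and -0.36. Scaling by library totals alone changed the last count to 16 higher and 36 lower. The genes named below have the largest changes in their list.

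Among 10 regulators and partners of Nrf2, 5 were higher and 3 lower in Ab-ASCs than in Sub-ASCs, beside 37.0% and 38.3% of all genes, 3 were higher and 5 lower in PVASCs than in Sub-ASCs, and in PVASCs against Ab-ASCs 6 were lower and 0 higher by edgeR's test, with 0 higher also at an unadjusted p below 0.05. Maff, a small Maf partner, was at 47.6 ± 4.74 CPM in Sub-ASCs, 216 ± 17.4 CPM in Ab-ASCs and 84.4 ± 0.81 CPM in PVASCs (SD, n = 3). The repressor Bach1 was 3.62-fold lower in Ab-ASCs and 3.57-fold lower in PVASCs than in Sub-ASCs, where it was at 195 ± 2.44 CPM. Nfe2l3, a related factor, had at most 21 reads in any library and was higher in Ab-ASCs and PVASCs than in Sub-ASCs (log2 2.54, SE 0.52, and 1.76, SE 0.54). The list joins genes that restrain Nrf2, such as Keap1 and Bach1, with its partners, so its counts by direction have no single meaning. Keap1 was not picked by the rule for naming genes. It was lower in Ab-ASCs (log2 -0.62) and PVASCs (-0.94) than in Sub-ASCs, and in PVASCs than in Ab-ASCs (-0.32).

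Of 14 tested genes for glutathione use, recycling and transport, 10 were higher and 4 lower in Ab-ASCs than in Sub-ASCs, beside 37.0% and 38.3% of all genes, 7 were higher and 7 lower in PVASCs than in Sub-ASCs, and 1 was higher and 9 lower in PVASCs than in Ab-ASCs. Gsta4, a glutathione transferase, was 21.8-fold higher in PVASCs and 17.7-fold higher in Ab-ASCs than in Sub-ASCs (3.82 ± 0.22 CPM). Gpx3, the secreted glutathione peroxidase, moved the other way, from 3445 ± 103 CPM in Sub-ASCs to 249 ± 31.8 CPM in Ab-ASCs and 163 ± 1.74 CPM in PVASCs. Mgst1, a microsomal glutathione transferase, was 6.05-fold lower in PVASCs and 5.67-fold lower in Ab-ASCs than in Sub-ASCs. Ggt1 had too few reads to be tested.

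The thioredoxin and peroxiredoxin list was higher in Ab-ASCs than in Sub-ASCs for 8 of 11 genes and lower for 0 by edgeR's test, also at an unadjusted p below 0.05, beside 37.0% and 38.3% of all genes. Against Sub-ASCs, PVASCs were higher for 6 and lower for 3, and against Ab-ASCs lower for 8 and higher for 1, beside 32.1% and 24.7%. Prdx1, a peroxiredoxin of the cytosol, was at 868 ± 22.6 CPM in Sub-ASCs, 2939 ± 480 CPM in Ab-ASCs and 1442 ± 59.9 CPM in PVASCs. Txn2, mitochondrial thioredoxin, exceeded its Sub-ASC level 2.6-fold in Ab-ASCs and 1.85-fold in PVASCs, and Prdx6 was 1.96-fold higher in Ab-ASCs but 1.19-fold lower in PVASCs. Of 6 genes for NADPH supply, 5 were higher in Ab-ASCs than in Sub-ASCs and 1 was lower, beside the same 37.0% and 38.3%, while 2 were higher and 3 lower in PVASCs than in Sub-ASCs and 1 was higher and 4 lower in PVASCs than in Ab-ASCs. Taldo1, the pentose phosphate enzyme transaldolase, was 2.69-fold higher in Ab-ASCs and 1.89-fold higher in PVASCs, both against Sub-ASCs. G6pdx, which opens that pathway, was 1.40-fold higher in Ab-ASCs but 1.28-fold lower in PVASCs than in Sub-ASCs. By contrast, Idh1, the cytosolic isocitrate dehydrogenase, was 6.30-fold lower in Ab-ASCs and 4.05-fold lower in PVASCs than in Sub-ASCs.

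**Figure D5:**
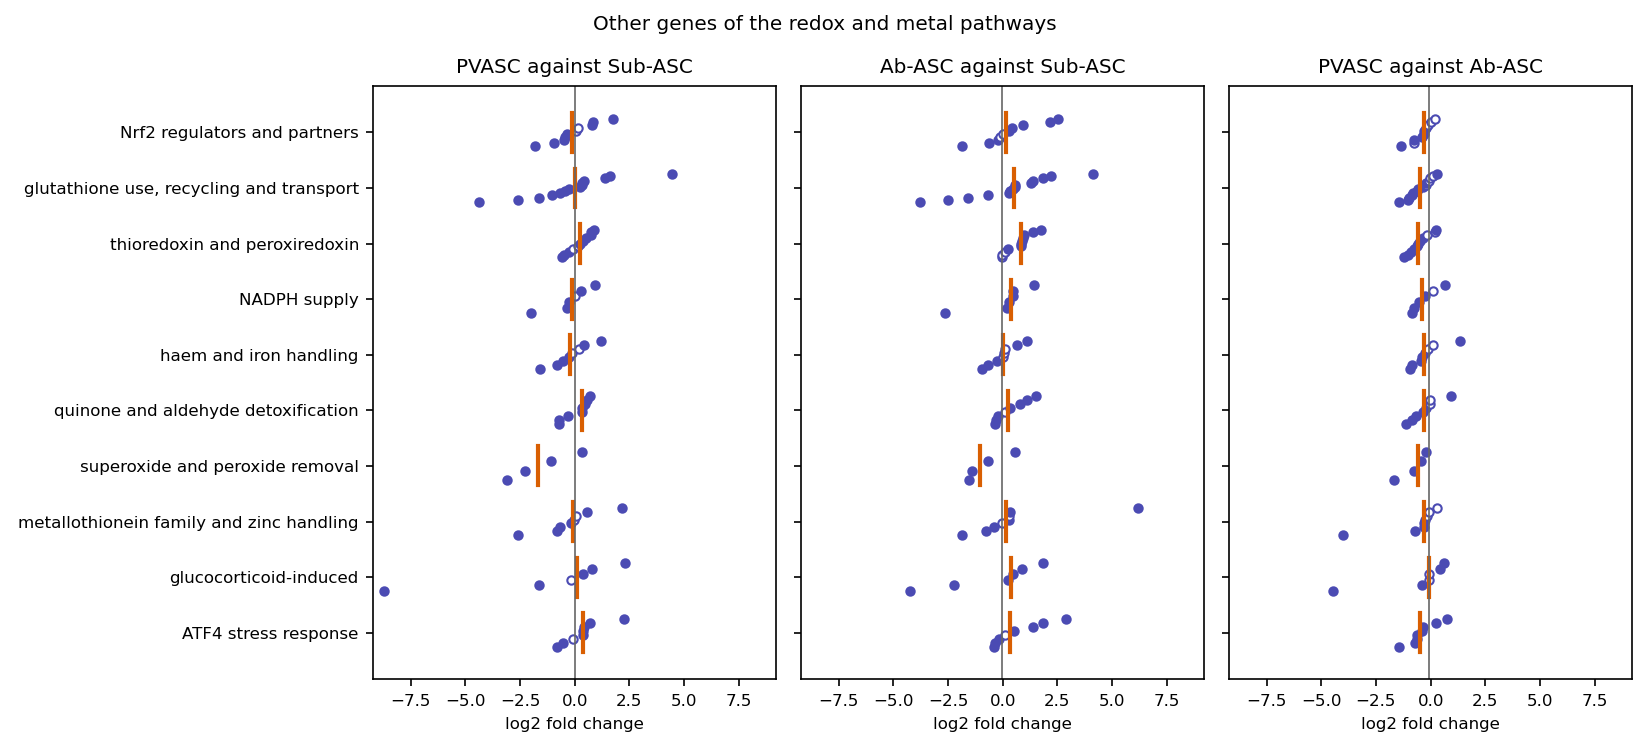
Log2 fold change (x axis) of each tested gene of the 10 pathway lists (y axis) in the 3 comparisons, with filled points for called genes and orange marks for the list median and a grey line for the median of all genes. In Ab-ASCs against Sub-ASCs the thioredoxin and peroxiredoxin median lies at 0.85 and that of superoxide and peroxide removal at -1.02.

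Superoxide and peroxide removal had 3 of 4 genes lower and 1 higher in both Ab-ASCs and PVASCs than in Sub-ASCs, where 38.3% and 35.7% of all genes were lower, and all 4 were lower in PVASCs than in Ab-ASCs. Sod2, the mitochondrial superoxide dismutase, was at 573 ± 8.48 CPM in Sub-ASCs, 219 ± 15.9 CPM in Ab-ASCs and 67.7 ± 4.84 CPM in PVASCs. The secreted enzyme Sod3 was 2.88-fold lower in Ab-ASCs and 4.90-fold lower in PVASCs than in Sub-ASCs, and Cat (catalase) was 1.58-fold and 2.13-fold lower. In haem and iron handling, where Hmox1 releases iron, 2 of 8 genes were higher and 3 lower in Ab-ASCs than in Sub-ASCs, beside 37.0% and 38.3% of all genes, 2 higher and 4 lower in PVASCs than in Sub-ASCs, and 1 higher and 5 lower in PVASCs than in Ab-ASCs. Fth1, the ferritin heavy chain, fell in the order of the metallothioneins, from 5181 ± 55.8 CPM in Sub-ASCs to 3221 ± 400 CPM in Ab-ASCs and 1696 ± 12.5 CPM in PVASCs. Slc40a1, the iron exporter, was 2.54-fold higher in PVASCs than in Ab-ASCs. Tfrc, the transferrin receptor, was higher than in Sub-ASCs in PVASCs (2.31-fold) and in Ab-ASCs (2.17-fold), where its libraries ranged from 57.9 CPM in replicate 1 to 136 CPM. In quinone and aldehyde detoxification, the list closest to Nqo1, 4 of 8 genes were higher and 3 lower in Ab-ASCs than in Sub-ASCs, again beside 37.0% and 38.3%, 5 higher and 3 lower in PVASCs than in Sub-ASCs, and 1 higher and 5 lower in PVASCs than in Ab-ASCs. Osgin1 was 2.82-fold higher and Esd, an esterase, 2.18-fold higher in Ab-ASCs than in Sub-ASCs, whereas Ephx1, an epoxide hydrolase, was 1.18-fold lower in Ab-ASCs and 1.63-fold higher in PVASCs, both against Sub-ASCs. Aldh3a1 had too few reads to be tested, with 21 at most in a library.

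In the metallothionein family and zinc handling list, 3 of 8 tested genes were higher and 3 lower in Ab-ASCs than in Sub-ASCs, beside 37.0% and 38.3% of all genes, and 2 were higher and 4 lower in PVASCs than in Sub-ASCs. In PVASCs against Ab-ASCs, edgeR's test called 0 higher and 5 lower, beside 24.7% and 32.1%, and 1 was higher at an unadjusted p below 0.05. Mt3, the family member known from brain, was counted at 1, 1 and 4 reads in Sub-ASCs, 119, 134 and 135 reads in Ab-ASCs and 14, 11 and 10 reads in PVASCs. It was thus highest in the group in which Mt1 and Mt2 were intermediate, and it was 16.2-fold lower in PVASCs than in Ab-ASCs (log2 -4.02, SE 0.21, adjusted p = 1.55e-08 by edgeR's quasi-likelihood test). Mt4 had 5 reads at most in a library and was not tested. Slc39a14, which imports zinc and iron, was 6.02-fold lower in PVASCs and 3.65-fold lower in Ab-ASCs than in Sub-ASCs (638 ± 1.34 CPM). The sensor Mtf1 was at 28.5 ± 1.99 CPM in Sub-ASCs, 28.3 ± 0.52 CPM in Ab-ASCs and 25.4 ± 0.12 CPM in PVASCs, and Slc30a1, a zinc exporter of the cell surface, at 19.8 ± 0.65, 25.2 ± 2.09 and 20.3 ± 1.39 CPM. Both are given for the plot by library and were not picked by the rule for naming genes. Slc30a7, a zinc transporter of the secretory pathway, was 1.77-fold lower in PVASCs and 1.70-fold lower in Ab-ASCs, both against Sub-ASCs. The glucocorticoid list held induced genes and the receptor gene Nr3c1, which is not counted among induced genes. Of its 6 genes, 4 were higher and 2 lower in Ab-ASCs than in Sub-ASCs, beside 37.0% and 38.3% of all genes. In PVASCs 3 were higher and 2 lower than in Sub-ASCs, and 2 higher and 2 lower than in Ab-ASCs. The lower genes in both comparisons with Sub-ASCs were Nr3c1 and Zbtb16. The receptor Nr3c1 was at 278 ± 16.5 CPM in Sub-ASCs against 59.2 ± 13.9 CPM in Ab-ASCs and 89.2 ± 1.99 CPM in PVASCs. Zbtb16 was at 10.9 ± 0.98 CPM in Sub-ASCs, with 2, 0 and 0 reads in PVASCs, while Sgk1, a kinase, was at 77.8 ± 2.6 CPM in Sub-ASCs and 376 ± 6.9 CPM in PVASCs.

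Slc7a11 also belongs to the targets of ATF4, the factor of the amino acid stress response. Of 8 genes of that response, 4 were higher and 3 lower in Ab-ASCs than in Sub-ASCs, beside 37.0% and 38.3% of all genes, 5 were higher and 2 lower in PVASCs than in Sub-ASCs, and 2 were higher and 6 lower in PVASCs than in Ab-ASCs, beside 24.7% and 32.1%. Psat1, an enzyme of serine synthesis, exceeded its Sub-ASC level 7.44-fold in Ab-ASCs and 4.82-fold in PVASCs. Chac1, which degrades glutathione, was at 2.70 ± 0.20 CPM in Sub-ASCs, 9.80 ± 0.73 CPM in Ab-ASCs and 3.61 ± 0.67 CPM in PVASCs. Asns, asparagine synthetase, exceeded its Sub-ASC level 2.64-fold in Ab-ASCs and 1.62-fold in PVASCs.

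Likeness across the 9 libraries was measured as the Pearson r of TMM-scaled log2 CPM and is given as a description, since the libraries form 3 groups. The pairs among Hmox1, Gclm, Txnrd1, Slc7a11 and Srxn1 had r from 0.73 to 0.99. These genes were grouped because all were highest in Ab-ASCs, so high r among them follows in part from that choice. Among the Nrf2 targets, pairs with Gclc or Nqo1 had r from -0.63 (Nqo1 with Gclc) to 0.91 (Nqo1 with Txnrd1). Closest to Hmox1 were Map2k1, Abcc4 and Srpr, at 0.998, 0.998 and 0.997, and 276 genes reached 0.95. Closest to Slc7a11 were Arhgap32 (0.99), Ptprd (0.98) and Zbtb44 (0.98), with 19 genes at 0.95 or more. For Mt2, 731 genes reached 0.95, led by BC067074 (0.997), Cfb (0.99) and Ppp1r3g (0.99). In PVASCs Cfb and Ppp1r3g were near the level of 3 reads, at 0.15 and 0.12 CPM on average. For Nfe2l2, whose range was narrow, 7 genes reached 0.95, led by Ppargc1b (0.97), Tnfrsf4 (0.97) and Clec4a2 (0.96). The genes named for Nfe2l2 were low, with group means of at most 2.39 CPM.

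Markers of other cell types differed between the groups along with the genes described. The summed level of 5 smooth muscle markers was 63.1 to 69.2 CPM in Sub-ASCs, 4427 to 5494 CPM in Ab-ASCs and 2668 to 2812 CPM in PVASCs, the order seen for Txnrd1 and Srxn1. Acta2 made up most of each sum (52.7, 4436 and 2505 CPM on average), and all 5 markers were higher than in Sub-ASCs in both other groups. For 8 mesothelial markers the summed level was 2.75 to 2.94 CPM in Sub-ASCs, where Upk1b and Lrrn4 were at 0, 122 to 131 CPM in Ab-ASCs and 47.9 to 49.7 CPM in PVASCs. For 6 endothelial markers it was 176 to 191, 63.7 to 66.2 and 764 to 768 CPM in the same order. Most of the PVASC sum came from Emcn (279 ± 6.06 CPM), Cdh5 (209 ± 1.90) and Pecam1 (180 ± 2.26), and of the 6 markers 5 were higher and 1 lower in PVASCs than in Sub-ASCs, the lower one being Tek (14.8 ± 0.49 against 46.0 ± 3.54 CPM). The sums of 10 macrophage markers were 314 to 317, 337 to 430 and 325 to 336 CPM, but Lyz2 made up most of each (163, 271 and 249 CPM on average), and 8 of the 10 markers were lower and 2 higher than in Sub-ASCs in both other groups, with median log2 fold changes of -0.81 in Ab-ASCs and -1.04 in PVASCs. Ptprc, which encodes CD45, was at 8.94 ± 1.01, 1.41 ± 0.25 and 2.81 ± 0.48 CPM. The sums of 6 adipocyte markers were 143 to 155, 35.1 to 38.7 and 45.6 to 48.3 CPM, with Lep at 0 in every group. The 8 mesenchymal stem cell markers summed to 6924 to 6951, 3686 to 3808 and 4273 to 4414 CPM, with none at 0 in any group. In Sub-ASCs most of that sum came from Pdgfra (2709 ± 84.0 CPM, against 443 ± 4.5 in Ab-ASCs and 332 ± 3.49 in PVASCs) and Ly6a, which encodes Sca1 (2049 ± 115, 21.8 ± 3.42 and 111 ± 4.45 CPM). Of the 8 markers, 4 were higher and 4 lower in PVASCs than in Sub-ASCs, Thy1 (883 ± 19.1 against 332 ± 11.4 CPM) and Eng (328 ± 10.6 against 108 ± 4.48 CPM) among the higher. Single markers named in this comparison were chosen after their values were seen. The part of these cell types in the results was not tested.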

How the data were processed

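Per gene and library, the authors deposited raw read counts, with gene length, position and biotype. The submitters' processing notes name CASAVA 1.8, Bowtie 0.12.2 and featureCounts 1.5.0-p3 and the builds mm8 and mm10. Listed starts and ends were those of GENCODE M21 (GRCm38) for 98.3% of the genes and for all 10 studied here. Whether counting used strand is not given in the sources used here, so overlapping genes on the other strand cannot be told apart. The genes and lists were chosen with earlier results of these data known. All 9 libraries entered 1 fit without covariates in edgeR 4.0.16 (R 4.3.3), after filterByExpr and TMM, with quasi-likelihood tests, and the steps were tested on simulated data. All 10 genes are described, and from each pathway list up to 3 called genes with the largest absolute log2 fold change were named. FPKM was computed here. The alternatives were DESeq2 1.42.0, voom with group weights in limma 3.58.1, other scalings and filters, fits of 2 groups at a time, a replicate block, a minimum absolute log2 change of 1, leaving out each replicate and, chosen after seeing the data, a gene length correction and the length of the longest coding transcript.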

Additional observations from a re-analysis of the deposited data

How the results depend on the processing

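Of 570 values of single genes under alternatives, 519 kept direction and call, 35 lost the call, 2 gained it (Nfe2l2 in Ab-ASCs against Sub-ASCs under the gene length correction, and Nqo1 in PVASCs against Ab-ASCs without Ab-ASC replicate 2) and 14 changed direction. Scaling by library totals alone shifted the median of all genes to 0.15 (PVASCs against Sub-ASCs), -0.09 (Ab-ASCs against Sub-ASCs) and 0.17 (PVASCs against Ab-ASCs). Under it, 2 genes were lower in PVASCs than in Sub-ASCs, 16 pathway genes were higher in PVASCs than in Ab-ASCs, and with that shared shift these values turned: Nfe2l2 to 0.049, -0.057 and 0.11, Gclm to 0.10 and Slc7a11 to 0.14 in PVASCs against Sub-ASCs, and Nqo1 to 0.075 and Gclc to 0.032 in PVASCs against Ab-ASCs. With a minimum absolute log2 change of 1, the genes lower in PVASCs were 2 against Sub-ASCs and 5 against Ab-ASCs. The remaining turned values were small and not called. For Nfe2l2 in Ab-ASCs against Sub-ASCs they were -0.035 with at least 10 reads in every library, -0.0035 with only these groups fitted and, leaving out 1 library at a time, from -0.016 (without Sub-ASC replicate 1) to 0.040. For Slc7a11 in PVASCs against Sub-ASCs they were 0.041 under upper-quartile scaling and, leaving out 1 library at a time, ranged from -0.081 to 0.046, being above 0 without Sub-ASC replicate 2 or PVASC replicate 1. For Gclc in Ab-ASCs against Sub-ASCs it was 0.11 under the gene length correction, which moved the median of all genes to 0.14. The cause of these changes was not tested.

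Same-numbered libraries did not deviate together (correlations from -0.03 to 0.05). With 3 libraries per group, these correlations do not decide whether the numbers pair the cultures, and the sources used here do not say. With the replicate number as a block, 4 genes were lower in PVASCs than in Sub-ASCs and 8 lower than in Ab-ASCs, since both calls on Nfe2l2 were lost. Leaving out 1 library at a time, 2 to 3 genes were higher and 4 to 5 lower in PVASCs than in Sub-ASCs, and 7 to 9 lower in PVASCs than in Ab-ASCs.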
